A study of Rattus norvegicus with 8 samples.

Results

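Kinesins are motor proteins that use ATP to walk along microtubules. In neurons they carry vesicles, mitochondria, receptors and RNA out of the cell body into axons and dendrites, and most of them move towards the fast-growing end of the microtubule. Other members of the superfamily build the mitotic spindle, feed and signal within cilia, or shorten microtubules from their ends, and the light chains are not motors but couple the conventional motor to cargo. The genes described here were taken by name, as every spot that was not a control and whose gene name began with Kif or Klc and a digit. That rule gave 105 spots, 51 probes and 41 genes, of which 37 were Kif genes and 4 were Klc genes, out of 42877 spots, 30367 probes and 17364 named genes. Kinesins with lettered names and motor partners such as Kifap3 lie outside the rule and are given at the end as neighbours of the family.

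RNA was taken from the hypothalamus, the brain region that controls pituitary hormone release, feeding and reproductive behaviour, of 4 female rats in estrus and 4 male rats. All animals were Sprague Dawley, a common outbred strain, were 3 to 4 months old and were kept under 14 hours of light and 10 hours of dark a day. The study compared the sexes with the cytoskeleton in view. A female and a male with the same replicate number shared an array, 1 in each dye, which made 4 arrays. Arrays 1 and 3 had the female in Cy3 and the male in Cy5, and arrays 2 and 4 the other way round. All females were in estrus, so sex and cycle stage cannot be told apart. In bulk tissue, fewer cells of a type and less RNA per cell cannot be told apart either.

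Each array probe is a DNA strand of about 60 bases, and what a probe reads depends on which gene its letters can tell from its relatives. The heavy chains of conventional kinesin, kinesin-1, are shown first because their probes show how far such a stretch can overlap between relatives. Sequences are given 5′ to 3′ as on the array, with positions on the rat build rn4, and capitals mark the bases that are identical between Kif5a and Kif5c in the stretch where their probes can be laid over each other without gaps. That stretch is 22 bases long and 17 of them are identical. The Kif5a probe lies on the minus strand at chr7:67190108-67190167, the Kif5c probe on the plus strand at chr3:30739644-30739703 and the Kif5b probe on the plus strand at chr17:59726315-59726374.
Kif5a: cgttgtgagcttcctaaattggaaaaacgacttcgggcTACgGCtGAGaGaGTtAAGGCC
Kif5c: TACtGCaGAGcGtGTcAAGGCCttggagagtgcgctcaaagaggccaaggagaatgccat
Kif5b: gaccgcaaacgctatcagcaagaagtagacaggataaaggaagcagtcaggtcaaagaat
Over all 1264 pairs of probes for different kinesin genes, the longest run of identical bases was 11. That compares probes with probes only. Matches of a probe to the transcripts of other genes were not looked up, so it does not show whether a probe also reads a relative.

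The next probes are shown because the results turn on them. Kif21a lies on the minus strand at chr7:129383624-129383683, Kif26b on the plus strand at chr13:94606539-94606598 and Klc3 on the minus strand at chr1:78750189-78750248. The Klc4 probe, minus strand, spans chr9:10003400-10003583, which is 184 bases, and the Kif3a probe, plus strand, spans chr10:39056626-39059587, which is 2962 bases. A probe that covers more genome than its own length joins exons across an intron, and 5 of the 51 probes did so. For the other positions, exon and intron annotation of rn4 was not used here.
Kif21a: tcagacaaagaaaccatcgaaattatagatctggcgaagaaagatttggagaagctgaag
Klc4: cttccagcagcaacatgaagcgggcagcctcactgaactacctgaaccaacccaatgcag
Kif26b: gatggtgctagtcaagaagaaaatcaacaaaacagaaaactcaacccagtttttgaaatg
Klc3: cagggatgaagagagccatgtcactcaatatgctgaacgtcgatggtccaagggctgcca
Kif3a: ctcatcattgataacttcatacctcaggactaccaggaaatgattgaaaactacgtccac
These are single probes for their genes except Kif26b, which had another probe too dim to be compared.

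Kif2c, a kinesin-13 that shortens microtubules at the centromere of dividing cells, had a pair of probes that show how close to the limit of detection some members lay. Both lie on the minus strand, at chr5:137474195-137474254 and chr5:137474203-137474262, and capitals mark the 52 bases they share.
Kif2c, dimmer: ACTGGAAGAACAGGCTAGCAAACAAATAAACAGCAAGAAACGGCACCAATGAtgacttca
Kif2c, brighter: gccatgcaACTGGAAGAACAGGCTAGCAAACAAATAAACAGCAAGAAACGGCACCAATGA
The brighter probe was above background in 2 of 4 females and 4 of 4 males and was compared between the sexes. The dimmer probe, shifted by 8 bases and printed on 10 spots, was above background in 2 of 4 females and 2 of 4 males and was not.

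Most transport kinesins were measured in every animal, and the members not compared were mainly spindle and ciliary motors. The comparison used probes that the scanner software judged well above background on a share of spots over 0.5 in all 4 samples of at least 1 sex. By that filter 35 kinesin probes of 31 genes were compared, or 35 of 51, beside 72.4% of all probes on the array. In all 8 samples 31 kinesin probes were well above background, beside 68.6% of all probes, and 6 were in none, beside 14.5%. The 10 genes with no probe left were Kif14, Kif18a and Kif4, which act in chromosome alignment and cytokinesis, Kif4b and Kif2b, the ciliary motors Kif6, Kif7, Kif19a and Kif24, and Kif21b, a neuronal kinesin-4. Their probes read between 6.39 and 6.96 on the log2 scale in the samples measured. Kif14, Kif4, Kif2b and Kif24 were above background in no sample, and the others were in some samples at 1 probe or more.

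Signals were brighter in Cy3 than in Cy5. Samples in Cy3 had medians of 492.5 to 519 intensity units over local background, and samples in Cy5 of 146 to 269.5, with 0 saturated spots. By the software's test, 84.9% to 87.0% of spots stood well above background in Cy3, and 77.6% to 80.2% did in Cy5. The number of arrays limits the precision.

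Male replicate 2 stood apart from the other 7 animals in markers of brain region. Of 18 genes of hypothalamic neurons, all 18 were measured and 16 were well above background in every sample, but so were all 10 measured genes of cortex, hippocampus and striatum. Levels in male replicate 2 went against the tissue label. Avp, the vasopressin gene, read 12.03 there and 16.15 to 16.68 in the other 7 animals, and Pmch, which encodes melanin-concentrating hormone, read 12.18 there and 16.29 to 17.09 elsewhere. Neurod2, a transcription factor of cortical neurons, read 12.67 there, 9.60 in female replicate 2 of the same array and 6.72 to 8.33 elsewhere. After removal of the dye difference, the median of these 18 genes was -1.96 log2 units from the gene means in male replicate 2. The other 7 animals lay between -0.03 and 0.74. Male replicate 2, in Cy3, was part of the dye estimate, so its low level also moved the other samples. The other Cy3 samples lay at 0.61 to 0.74, and the Cy5 samples at -0.03 to 0.0011. Other deviations with the dye difference removed carry the same limit. The median of the 10 genes of cortex, hippocampus and striatum was 1.13 in male replicate 2, against -0.37 to 0.34 in the other 7. The 0.34 was that of female replicate 2. Of these 10 genes, 8 were highest in male replicate 2 among all 8 samples, and the other 2, Drd2 and Rgs9, were lowest there. General neuron markers (8 genes) were at 0.24 in male replicate 2 and between -0.22 and 0.04 elsewhere. Values without array 2 are therefore given beside the kinesin results that it moved, and the part of these markers in the kinesin values was not tested.

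No kinesin differed between the sexes after correction, and the family was split evenly in direction. The values are log2 ratios of female over male within an array, averaged over 4 arrays by limma with a dye term for each probe, and errors are standard errors (SE) of that fit. After Benjamini-Hochberg adjustment over 21995 probes, limma called 0 of 35 kinesin probes at 0.05, and 0.0% of all probes; the lowest adjusted p of any kinesin was 0.555, which was also the lowest on the array. At an unadjusted p under 0.05, 4 of 35 kinesin probes passed, or 11.4%, beside 8.5% of all probes, so the share was near the background. All 4 were higher in females, where 4.98% of all probes lay, and none was lower, beside 3.52%. With a fold of at least 1.5 in addition, 0 of 35 passed, beside 0.814%.

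Of the 35 ratios, 17 were above 0, or 48.6%, and 18 below, or 51.4%, beside 56.1% and 43.9% of all probes. Their median was -0.0091, beside 0.02 for all probes, and they ran between -0.29 for Kif5b and 0.44 for Kif21a. Kif11, Kif20b and Kif2c, all below 0, passed the filter only through males, and Kif2a, just above 0, only through females. The ratio had the same sign on every array for 3 of 35 probes, or 8.57%, beside 11.2% of all probes. These were Kif9, above 0 as were 5.31% of all probes, and Kif5a and Kif13b, below 0 as were 5.86%. For no kinesin did the levels of 4 females and 4 males fail to overlap, beside 1.22% of all probes with every female higher and 1.67% with every male higher.

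**Figure D1:**
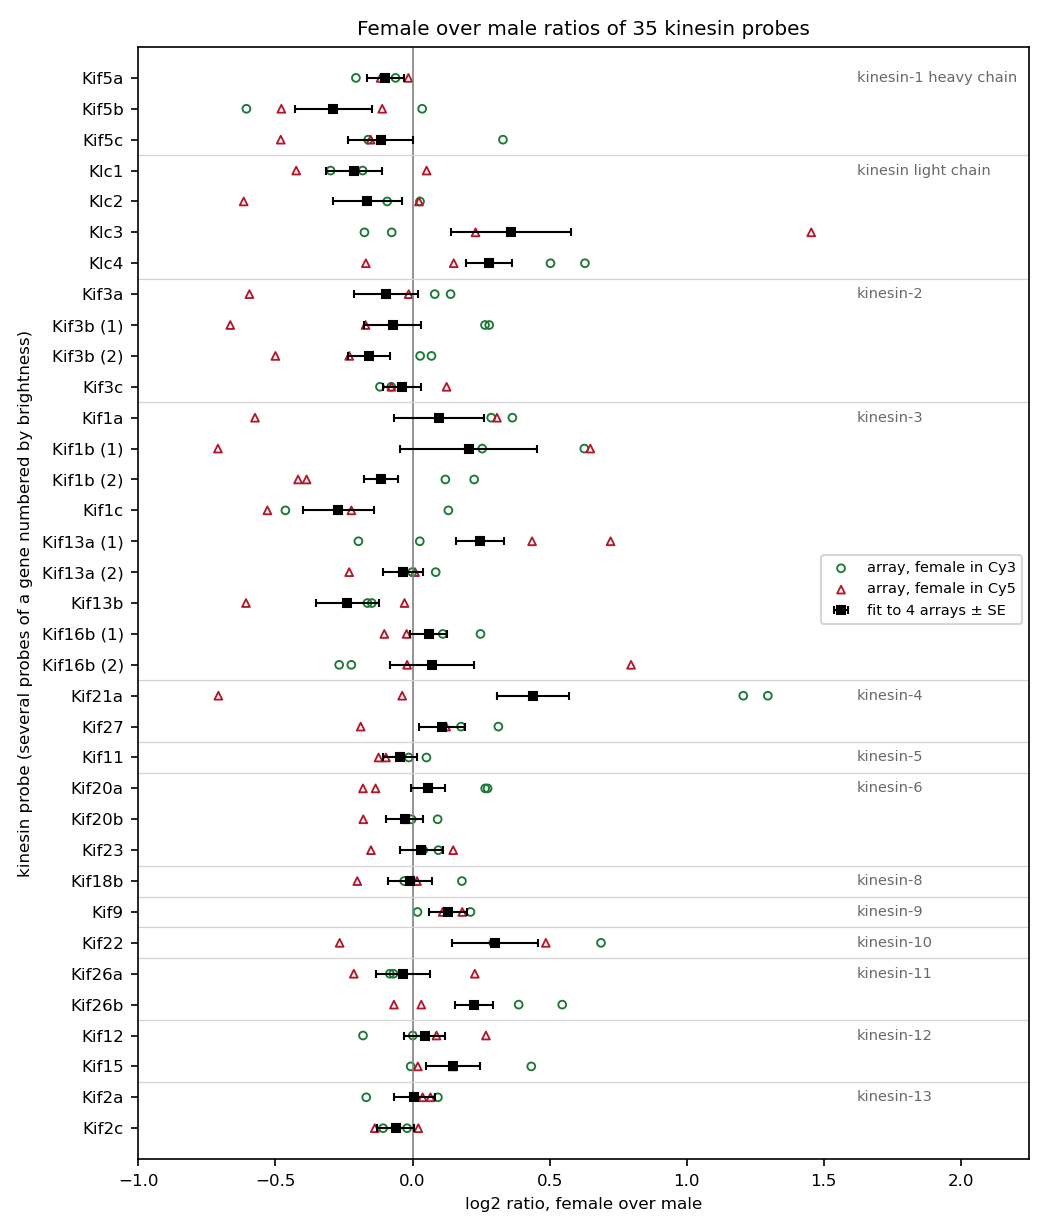
Log2 ratio of female over male for the 35 kinesin probes compared, by subfamily. Open marks are single arrays by the dye of the female, and black squares with bars are the fit to 4 arrays ± SE; ratios from arrays of opposite dye fall on both sides of 0 for most probes, and the fitted values lie between -0.29 for Kif5b and 0.44 for Kif21a.

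Kif21a had the highest fitted ratio of the family. It is a kinesin-4 that sits at microtubule ends in axons and restrains their growth, and altered human KIF21A disturbs the wiring of eye muscle nerves. Levels here are log2 normalised intensities in replicate order. Kif21a read 9.40, 8.96, 9.64 and 8.73 in females and 8.19, 9.001, 8.34 and 9.44 in males. In both sexes the Cy3 samples were the bright ones, and the groups overlapped. The mean was 9.18 ± 0.41 in females and 8.74 ± 0.58 in males (SD, 4 animals each). The ratio was 1.21 and 1.30 on the arrays with the female in Cy3 and -0.04 and -0.71 on those with the female in Cy5. The fit, which separates dye from sex, gave 0.44 ± 0.13, a fold of 1.36, with a limma unadjusted p of 0.026 and an adjusted p of 0.555.

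Klc4, a kinesin light chain, read 10.46, 10.32, 10.48 and 10.11 in females and 9.83, 10.17, 9.98 and 10.28 in males. Females 1, 2 and 3 were above every male, and female replicate 4 lay within the male range. The fitted ratio was 0.28 ± 0.08, a fold of 1.21, with an unadjusted p of 0.0277 in limma. Kif26b, an atypical kinesin-11 tied in mouse to kidney development and Wnt signalling, read 7.54, 7.43, 7.70 and 7.42 in females and 7.15, 7.40, 7.15 and 7.49 in males. Males 1 and 3, both in Cy5, were the lowest of all 8, and the other 6 samples overlapped between the sexes. Its ratio was 0.22 ± 0.07, a fold of 1.17, with a limma unadjusted p of 0.0281.

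Kif13a, a kinesin-3 that carries endosomal and mannose-6-phosphate receptor cargo, read 10.02, 10.36, 9.85 and 10.26 in females and 9.99, 9.64, 10.04 and 9.83 in males at its brighter probe. The Cy5 samples were the high ones in both sexes, and the groups overlapped. This probe was printed on 10 spots, and the SD of the log2 ratio between spots within an array was 0.156 to 0.177, while the ratio itself ran between -0.20 on array 3 and 0.72 on array 2. The fitted ratio was 0.25 ± 0.09, with a limma unadjusted p of 0.0437. Adjusted p-values of Klc4, Kif26b and Kif13a were 0.555 each. Without array 2 the ratios were 0.27 ± 0.07 for Kif21a, 0.20 ± 0.07 for Klc4, 0.20 ± 0.08 for Kif26b and 0.18 ± 0.08 for Kif13a.

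**Figure D2:**
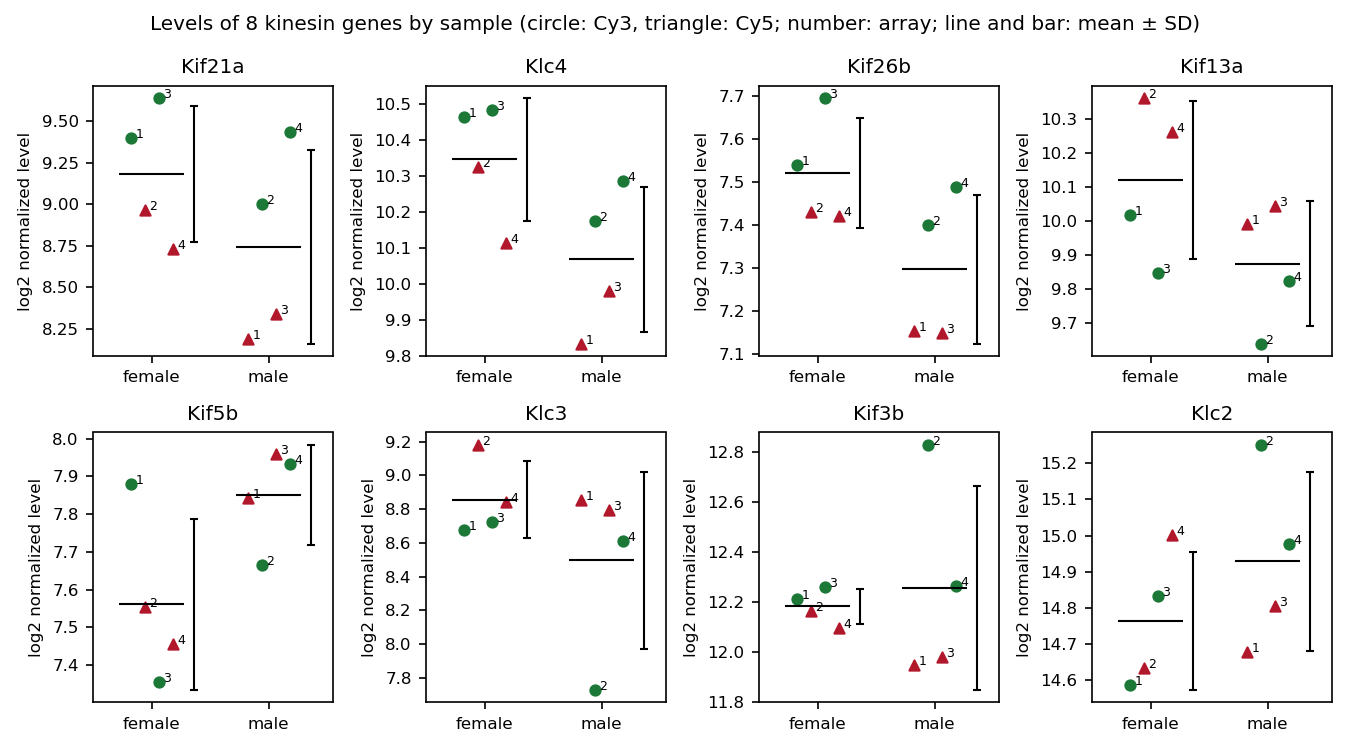
Log2 normalised level of 8 kinesin genes in each of 4 females and 4 males, with circles for Cy3, triangles for Cy5 and the array number beside each point; lines and bars are mean ± SD. In Kif21a the circles stand above the triangles in both sexes. Male replicate 2 is the highest male in Kif3b and Klc2 and the lowest in Klc3, Kif13a and Kif5b.

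The conventional motor, kinesin-1, is a tetramer of heavy chains, which walk, and light chains, which bind cargo and keep the idle motor folded. All 3 heavy chains had ratios below 0, with a median of -0.12, and none passed even the unadjusted threshold. Kif5b, the form found in most cell types, read 7.88, 7.56, 7.35 and 7.46 in females and 7.84, 7.67, 7.96 and 7.93 in males. Female replicate 1 lay within the male range and the other 3 females lay below every male. The mean was 7.56 ± 0.23 in females and 7.85 ± 0.13 in males (SD, 4 animals each). The ratio was -0.29 ± 0.14, a fold of 0.818, with a limma unadjusted p of 0.104, and -0.38 ± 0.16 without array 2.

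Kif5a, a neuronal heavy chain needed for neurofilament transport in mouse, read 9.09, 9.14, 8.81 and 8.97 in females and 9.15, 9.15, 9.02 and 9.09 in males. Females were lower than the male of their array on all 4 arrays, by 0.02 to 0.21 log2 units, but the groups overlapped. The ratio was -0.10 ± 0.07. Kif5c, the other neuron-enriched heavy chain, read 7.46, 7.49, 7.69 and 7.67 in females and 7.62, 7.97, 7.36 and 7.82 in males. The male values spanned the female ones, with male replicate 2 highest and male replicate 3 lowest. Its ratio was -0.12 ± 0.12, and -0.03 ± 0.13 without array 2.

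The 4 light chains were split. Klc1, the main neuronal light chain, read 13.03, 13.17, 13.02 and 13.23 in females and 13.33, 13.59, 13.20 and 13.18 in males. Male replicate 2 was the highest sample, and the groups overlapped through male replicates 3 and 4. The ratio was -0.21 ± 0.10, with a limma unadjusted p of 0.104. Klc2, which is also expressed in neurons, read 14.59, 14.63, 14.83 and 15.001 in females and 14.68, 15.25, 14.81 and 14.98 in males. Apart from male replicate 2, at the top, the sexes covered the same range. The ratio was -0.16 ± 0.13, and 3 of the 4 arrays lay within 0.1 of 0. Without array 2 the ratio was -0.09 ± 0.07 for Klc1 and -0.0047 ± 0.07 for Klc2.

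Klc3, a light chain known from the sperm tail, where it associates with mitochondria in rat, read 8.68, 9.18, 8.72 and 8.84 in females and 8.85, 7.73, 8.80 and 8.61 in males. Male replicate 2 was far below the other 7 samples, and these overlapped between the sexes. The ratio was 1.45 on array 2 and between -0.18 and 0.23 on the other 3. The fit gave 0.36 ± 0.22 with all arrays and 0.05 ± 0.07 without array 2.

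Kinesin-2 motors pair Kif3a with Kif3b or Kif3c and, with the associated protein Kifap3, move cargo along axons and intraflagellar trains along cilia. All 4 kinesin-2 probes had ratios below 0, with a median of -0.09, and none passed the unadjusted threshold. Kif3a, on 10 spots, read 10.21, 10.26, 10.26 and 10.21 in females and 10.13, 10.86, 10.13 and 10.23 in males. The females lay within 0.1 of each other and within the range of the males, of which replicate 2 was alone at the top. The ratio was -0.60 on array 2 and between -0.01 and 0.14 on the others, against an SD between spots of 0.163 to 0.216. The fit gave -0.10 ± 0.12 with all arrays and 0.05 ± 0.07 without array 2.

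Kif3b read 12.21, 12.16, 12.26 and 12.09 in females and 11.95, 12.83, 11.98 and 12.27 in males at its brighter probe. At the dimmer probe, which lies at chr3:143678213-143678272, it read 7.88, 7.86, 8.13 and 7.90 in females and 7.85, 8.36, 8.06 and 8.13 in males. Male replicate 2 was the highest of all samples at both probes, and the other samples overlapped. The ratio was -0.07 ± 0.10 at the brighter probe and -0.16 ± 0.08 at the dimmer one, and without array 2 it was 0.05 ± 0.07 and -0.09 ± 0.07. Kif3c, the form restricted mostly to neurons, read 12.56, 12.87, 12.62 and 12.73 in females and 12.64, 12.94, 12.74 and 12.61 in males. The ranges were nearly the same in the sexes, and the ratio was -0.04 ± 0.07, and 0.01 ± 0.07 without array 2. The direction of the subfamily thus rested on array 2, since 3 of 4 probes were above 0 without it, with a median of 0.03.

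Kinesin-3 motors include Kif1a and Kif1b, which take precursors of synaptic vesicles down the axon; a form of Kif1b carries mitochondria. The 9 measured probes were 5 above and 4 below 0, with a median of 0.06, and -0.09 without array 2. Kif1a read 8.57, 8.92, 8.83 and 8.75 in females and 8.201, 9.50, 8.55 and 8.44 in males. The females fell inside the male range, which male replicates 1 and 2 spanned from end to end. On arrays 1, 3 and 4 the female was higher by 0.29 to 0.36, and on array 2 the male was, with a ratio of -0.57. The fit gave 0.10 ± 0.16 with all arrays, and 0.32 ± 0.07 without array 2.

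Kif1b was measured by 2 probes that did not move together. At the brighter probe it read 9.20, 9.73, 8.91 and 8.76 in females and 8.58, 9.09, 8.66 and 9.47 in males. Female replicate 2 was the highest and male replicate 1 the lowest, and the groups overlapped widely. At the dimmer probe, chr5:166258513-166258572, it read 8.74, 8.78, 8.67 and 8.37 in females and 8.62, 9.16, 8.45 and 8.79 in males. There male replicate 2 was the highest and female replicate 4 the lowest. The ratios were 0.20 ± 0.25 at the brighter and -0.11 ± 0.06 at the dimmer probe, a difference of 0.32, the largest between probes of a kinesin gene. Array 2 read 0.65 at one and -0.39 at the other, and without it both were below 0, at -0.13 ± 0.11 and -0.12 ± 0.07. In that fit array 4 was the only array with the female in Cy5. It read -0.71 at the brighter probe, against 0.63 and 0.25 on arrays 1 and 3. Without array 4 the ratios were 0.54 ± 0.11 and -0.11 ± 0.07, so whether the probes shared a direction depended on the array left out. Another probe, which the array file describes as KIF1B but lists under a transcript identifier, had a ratio of -0.08 ± 0.06, and -0.05 ± 0.07 without array 2.

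Kif13a was the gene with the next largest difference between probes, 0.28. Its dimmer probe read 7.02, 7.002, 6.95 and 6.75 in females and 6.94, 6.99, 6.95 and 6.98 in males. All samples but female replicate 4 lay within 0.1 of each other, and the ratio was -0.03 ± 0.07, against the 0.25 of the brighter probe, and -0.09 ± 0.07 without array 2. Kif13b, which carries a scaffold protein of the Dlg family, read 7.96, 8.13, 7.93 and 8.003 in females and 8.11, 8.74, 8.09 and 8.03 in males. Male replicate 2 was alone at the top, and the other 7 samples lay between 7.93 and 8.13. The ratio was -0.24 ± 0.12 and, without array 2, -0.09 ± 0.07.

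Kif1c, a widely expressed kinesin-3 that moves integrin vesicles and RNA, read 9.91, 9.08, 9.54 and 9.57 in females and 9.78, 9.61, 10.01 and 9.80 in males. Female replicate 1 lay among the males and the other 3 females below all of them. The ratio was -0.27 ± 0.13, and -0.19 ± 0.15 without array 2. Kif16b, a motor of early endosomes, had ratios of 0.06 ± 0.07 and 0.07 ± 0.15 at its probes. The dimmer of these ran between -0.27 on array 1 and 0.80 on array 4, and its fit was 0.28 ± 0.07 without array 2 but -0.13 ± 0.07 without array 4.

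None of the spindle motors passed either threshold with all 4 arrays. Of 13 probes for 12 mitotic kinesins, 8 were compared, 4 above and 4 below 0, with a median of 0.01. Without array 2 they were 6 above and 2 below, with a median of 0.04. Of those below 0 with all arrays, Kif11, Kif20b and Kif2c passed the filter only through males. Among the 5 mitotic probes well above background in all samples, 4 were above and 1 below 0, with a median of 0.06. The even split thus depended on the filter. Kif22, a motor that binds chromosome arms, read 9.65, 9.26, 9.59 and 9.42 in females and 8.96, 8.77, 9.29 and 9.68 in males. Males 1 and 2 were below every female and male replicate 4 above every female. The ratio was 0.30 ± 0.16, and 0.11 ± 0.11 without array 2. The other 7 mitotic probes, among them those of the cytokinesis motors Kif20a and Kif23, lay between -0.06 and 0.15. Marker genes of dividing cells (9 measured) had a median ratio of -0.06.

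Kif11, the spindle motor also called Eg5, was above background in 2 of 4 females and 4 of 4 males, and read 6.87, 6.88, 6.84 and 6.79 in females and 6.82, 7.01, 6.86 and 6.89 in males. Kif20b was above background in 3 of 4 females and 4 of 4 males, and read 6.81, 6.90, 6.87 and 6.81 in females and 6.81, 7.07, 6.78 and 6.84 in males. In both genes male replicate 2 was the highest, and the other samples overlapped. The brighter Kif2c probe read 6.73, 6.72, 6.75 and 6.65 in females and 6.75, 6.70, 6.86 and 6.79 in males, with the groups overlapping. Every sample in Cy3 was above background at these probes, so the undetected ones were all in Cy5, the dimmer dye. The ratios were -0.05 ± 0.06, -0.03 ± 0.07 and -0.06 ± 0.07 for Kif11, Kif20b and Kif2c, and without array 2 they were -0.04 ± 0.07, 0.0093 ± 0.07 and -0.10 ± 0.07.

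Kif2a, a kinesin-13 that trims the tips of axon branches by shortening microtubules, was above background in 4 of 4 females and 3 of 4 males. It read 6.80, 6.91, 6.90 and 6.74 in females and 6.71, 6.87, 7.07 and 6.68 in males. The males spanned the females, and the ratio was 0.0063 ± 0.08. A brighter probe that the array file describes as KIF2A, under a transcript identifier, read 8.95, 8.38, 9.15 and 8.49 in females and 8.34, 9.77, 8.41 and 9.13 in males. Its Cy3 samples were the bright ones, male replicate 2 most of all, and its ratio was -0.17 ± 0.14, and 0.02 ± 0.07 without array 2.

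Among motors of cilia, Kif9 works in motile cilia and is given in full because its ratio had the same sign on every array. It was picked once its values were known. Its levels were 8.80, 8.44, 8.85 and 8.90 in females and 8.59, 8.33, 8.84 and 8.72 in males. The female was higher on all 4 arrays, by 0.02 to 0.21, while the levels overlapped. The ratio was 0.13 ± 0.07, with a limma unadjusted p of 0.133, and 0.15 ± 0.08 without array 2. Kif27, which is needed for motile cilia in mouse, had a ratio of 0.11 ± 0.08 at its measured probe, and 0.18 ± 0.07 without array 2. Markers of ependyma and motile cilia (12 measured) had a median ratio of 0.10, with 8 above and 4 below 0. Of the remaining members, Kif26a, an atypical kinesin-11, had a ratio of -0.04 ± 0.10 and Kif12, a kinesin-12, of 0.04 ± 0.07, and without array 2 these were -0.15 ± 0.07 and 0.09 ± 0.08.

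By group, the 19 probes of axonal and dendritic transport motors and their light chains were 6 above and 13 below 0, with a median of -0.07, beside 0.02 for all probes. Without array 2 they were 8 above and 11 below, with a median of -0.03. General neuron markers (8 genes) were 3 above and 5 below 0, with a median of -0.11, and -0.02 without array 2. Markers of cortex, hippocampus and striatum were 4 above and 6 below, with a median of -0.27, and 0.03 without array 2. Hypothalamic neuron markers were 17 above and 1 below, with a median of 0.72, and 0.0053 without array 2. For oligodendrocytes, the cells that make myelin, 10 of 10 marker genes were below 0, with a median of -0.30. Without array 2 these were 1 above and 8 below of 9, with a median of -0.22. Their median deviation was -0.37 to -0.08 in females and 0.06 to 0.28 in males. Markers of the choroid plexus (6 measured) were 1 above and 5 below 0, with a median of -0.10, and -0.25 without array 2. Ttr, the transthyretin gene, had the lowest of these ratios, -1.79 ± 0.53. It read 16.50 in male replicate 4 and between 10.91 and 13.78 in the other 7 animals. Kcnj13 went the other way, at 0.32 ± 0.25. Male replicate 4 was not the highest animal for Kcnj13, Aqp1, Folr1 or Otx2. The part of these lists in the kinesin values was not tested. In single animals the median deviation of the transport probes from the probe means, with the dye difference removed, was 0.24 in male replicate 2. It was between -0.12 and 0.07 in the other 7. Male replicate 2 was the highest of all 8 samples in 15 of 35 kinesin probes, or 42.9%, beside 24.2% of all probes, and the lowest in 6, or 17.1%, beside 26.9%. It was the highest of the 4 males in 17 of 35, or 48.6%, beside 36.2% of all probes, among them 12 of the 19 transport probes and 4 of 4 kinesin-2 probes.

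**Figure D3:**
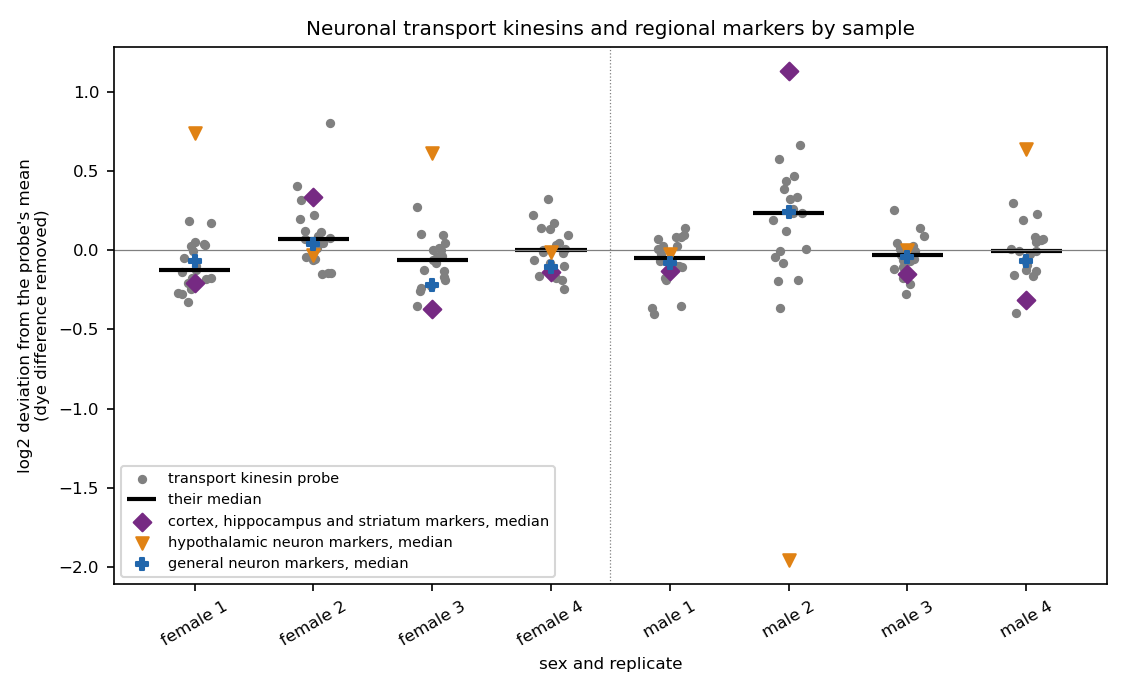
Deviation of each transport kinesin probe (grey points, with their median as a line) and of 3 marker lists (medians) from the probe mean in each animal, in log2 units with the dye difference removed. Male replicate 2 has the highest kinesin median, 0.24, the highest median of cortex, hippocampus and striatum markers, 1.13, and the lowest of hypothalamic neuron markers, -1.96.

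The spread between animals, taken after removal of the dye difference, was larger in females for 16 of 35 kinesin probes, or 45.7%, beside 38.4% of all probes. The median SD was 0.126 log2 units in females and 0.161 in males, beside 0.123 and 0.141 for all probes. Without replicate 2 of each sex it was larger in females for 20 of 35, or 57.1%, beside 52.1%, and the medians were 0.10 and 0.0873. For kinesin-2 the median SD was 0.118 in females and 0.217 in males with all animals. It was 0.114 in females and 0.0575 in males without replicate 2. The dye difference removed was estimated with every animal, so male replicate 2 still moved the values given without it. For Kif3a the SD of the 4 females was 0.028 before removal of the dye difference and 0.122 after it. How far the sexes differ in spread without replicate 2 thus cannot be read from these values.

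A dye difference was called for Kif21a among the kinesins. The fitted dye difference, log2 of Cy3 over Cy5, passed an adjusted p of 0.05 in limma for 1 of 35 kinesin probes, or 2.86%, beside 12.7% of all probes. At an unadjusted p under 0.05 there were 7, or 20.0%, beside 32.5%. The 1 was Kif21a, at 0.81 ± 0.13 with an adjusted p of 0.0352, larger than its sex ratio. At the other end stood Klc3, at -0.48 ± 0.22, which did not pass. With each sex in each dye on 2 arrays, the dye difference cancels in the fitted sex ratio but not in the ratio of a single array.

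Arrays 2 and 4 were those with the female in Cy5, so leaving out one or the other moved the fitted ratios by like amounts in opposite directions, while the number of calls differed. Without array 2, limma called 0 kinesins at an adjusted p under 0.05, and 3 passed at an unadjusted p under 0.05, beside 7.99% of all probes. Without array 4, limma on 3 arrays called 1479 of 21826 probes at an adjusted p under 0.05, or 6.78%, and 2 of 35 kinesins, which were Klc3 at 0.66 ± 0.07 with an adjusted p of 0.034 and Kif21a at 0.61 ± 0.07 with an adjusted p of 0.0365. At an unadjusted p under 0.05 there were 13 kinesin probes of 12 genes, 7 probes higher and 6 lower in females, beside 29.6% of all probes. The kinesins with the next smallest p were Kif13b, at -0.38, and Kif1b, at 0.54 at its brighter probe. Without array 4, array 2, which held male replicate 2, was the only array left with the female in Cy5. Without array 2, array 4 was. The lone array is fitted exactly, so the calls on 3 arrays hold no spread between arrays with the female in Cy5.

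**Figure D4:**
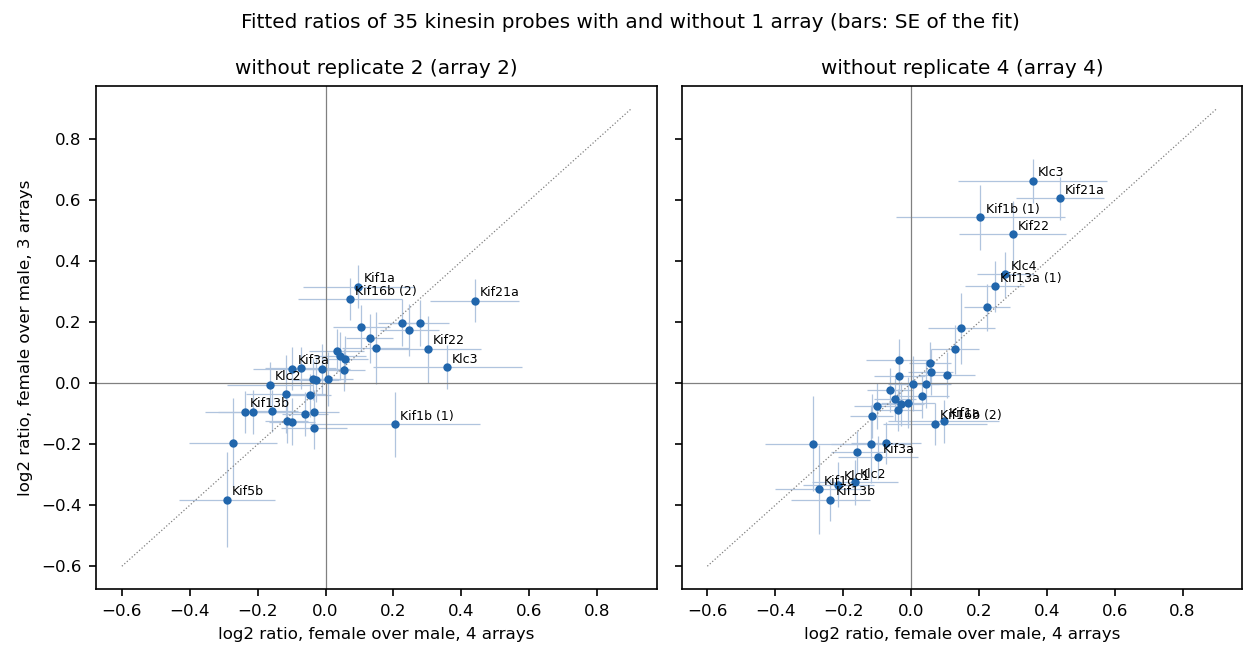
Fitted log2 ratio of female over male for 35 kinesin probes with all 4 arrays (horizontal) against the fit without array 2 (left) or without array 4 (right), with SE bars. Klc3 lies at 0.36 with all arrays, 0.05 without array 2 and 0.66 without array 4, and Kif21a stays above 0 in both.

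No partner of the motors passed the adjusted threshold with all 4 arrays either. Of 34 measured cargo adaptors and regulators, 14 were above and 20 below 0, with a median of -0.06, and the same counts held without array 2, with a median of -0.02. At an unadjusted p under 0.05, 2 of them were lower in females, or 5.88%, beside 3.52% of all probes. These were Mapk8ip2, a scaffold that binds light chains, at -0.40 ± 0.13, and Clstn1, a vesicle protein bound by light chains, at -0.22 ± 0.08. Without array 2 they were at -0.28 ± 0.12 and -0.18 ± 0.08, and neither passed. Lin7b, which links a receptor complex to a kinesin-2 motor, came next, at -0.25 ± 0.11, and -0.14 ± 0.09 without array 2. In male replicate 2 the median deviation of this list was 0.19, against -0.13 to 0.04 in the other 7 animals. Without array 4, 14 of the 34 had an unadjusted p under 0.05, beside 29.6% of all probes. An adjusted p under 0.05 was reached there by 5, beside 6.78%, which were Hap1 at 1.03 ± 0.07, Nefl at -0.84 ± 0.07, Rhot1 at -0.63 ± 0.07, Ppfia2 at -0.58 ± 0.08 and Trak2 at -0.56 ± 0.07. They are named after their values were seen.

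Cytoplasmic dynein and its activator dynactin carry cargo the opposite way. Their 21 measured genes were 9 above and 12 below 0, with a median of -0.05, and 0 passed either threshold in limma with all arrays. Their direction turned without array 2, when 13 were above and 7 below of 20, with a median of 0.02. Without array 4, 6 of 20 had an unadjusted p under 0.05 and 1 an adjusted p under 0.05, Dynlt3 at -0.53 ± 0.07, likewise named after its value was seen. With all arrays the smallest p-values belonged to Actr1a, the filament subunit of dynactin, at -0.13 ± 0.07, Dynlt1, a dynein light chain, at 0.24 ± 0.15, and Nde1, a dynein regulator, at 0.15 ± 0.10. Without array 2 these were at -0.08 ± 0.08, 0.05 ± 0.10 and 0.05 ± 0.09.

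Among kinesins with lettered names, Kifc3 had ratios of 0.19 ± 0.08 at its brighter probe and -0.0013 ± 0.08 at its dimmer one, and without array 2 they were 0.14 ± 0.08 and -0.04 ± 0.08. Kifc2 had a ratio of -0.13 ± 0.16, and 0.09 ± 0.07 without array 2. The spindle motor Kifc1 was at 0.04 ± 0.07, and 0.10 ± 0.07 without array 2. Kifap3, the kinesin-2 partner, had ratios of 0.08 ± 0.42 at its brighter probe, with 1.28 on array 1 and -1.64 on array 4, and of -0.15 ± 0.16 at its dimmer one. Without array 2 its ratios were -0.45 ± 0.25 and -0.19 ± 0.19, and without array 4 they were 0.62 ± 0.25 and -0.10 ± 0.19.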

How the data were processed

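Hypothalamic RNA of 4 females and 4 males was measured on 4 two-colour arrays. The scanner software was Agilent Feature Extraction 10.7.3.1, per the submitters' processing notes. Signals of spots and of their surroundings are intensity values, per the file headers, with 1 set for each dye. The software's own ratio is on a log10 scale, red over green, per the file headers. The authors' deposited values are on a log2 scale: within 0.01, 100% of its values are log2 of median signal less median background, shifted by a constant so that each column has a median of 0. They had 0 columns of other samples. Paired files held the same scan, so each sample was read from its own dye channel as labelled.

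With limma 3.58.1 (R 4.3.3, data.table version 1.17.8), background was removed from mean signals by normexp at an offset of 50, and a loess curve with controls at weight 0 centred each array. Each array lost 931 to 1096 outlier spots, and the rest were averaged by probe. For levels of single samples, average intensities were made alike between arrays with Aquantile, which leaves the ratio within an array unchanged. After the filter on dim probes, 21995 with at least 1 residual degree of freedom were fitted (lmFit, eBayes) with terms for sex and dye. P-values were adjusted by Benjamini-Hochberg over all of them. The fitting code was tested on simulated data. Of the 51 kinesin probes, 34 matched a current RefSeq gene by accession, and 0 of these differed in symbol. Summaries used pandas 2.3.3 and numpy 2.4.6 and figures with matplotlib 3.10.9 under Python 3.11.15.

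The female and male of a number share an array, per the labels and files, which pairs them, and each ratio is taken within that array. Deviations of the pair from their sex means correlated across probes at 0.57, 0.65, 0.42 and -0.05 on arrays 1 to 4; probes are not independent replicates.

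Members, subfamily groups and lists were chosen with earlier results of these data known. Genes given in every sample were the 5 with the smallest unadjusted p in each direction at their brightest probe, 12 measured neuronal transport genes, the 3 genes with the largest difference between probes, those detected in all samples of only 1 sex, and those with the largest dye difference each way; partner lists gave 3 genes each. Alternatives were no dye term, no replicate block, no background correction, offset 16, median centring, the scanner's log ratio, the authors' values, other filters, outlier spots kept, a trended robust prior, other call rules and leaving out each replicate.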

Additional observations from a re-analysis of the deposited data

Results flagged for a closer look

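In 5 of 70 groups of 4 animals, 1 animal stood apart from the other 3 by a gap that took up most of the group's range, after removal of the dye difference. Chance alone sets an animal apart in about 1 in 20 such groups. Male replicate 2 was the high animal in 2 of them: Kif3b at its brighter probe, 12.65 log2 units against 12.09 to 12.15 in the other males, and Kif20a, a cytokinesis motor, 7.15 against 6.95 to 6.98. In Kif20a the females also had an animal apart, replicate 2 of the same array, at 7.23 against 6.998 to 7.01, and the fitted ratio was 0.06 ± 0.06 with array 2 and 0.04 ± 0.07 without it. In Klc3, female replicate 4 was low after that removal, at 8.60 against 8.92 to 8.96 in the other females. Before it, the same animal read 8.84, inside the range of the other females, 8.68 to 9.18. The Klc3 dye difference was -0.48 with all arrays and -0.18 without array 2. In Kif26b, male replicate 4 was high, at 7.37 against 7.27 to 7.28 in the other males.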

How the results depend on the processing

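The count of 0 kinesins past an adjusted p of 0.05 for sex held under 14 alternatives and under the rule that adds a fold of at least 1.5; it was 4 by unadjusted p alone, and 0 to 2 when each replicate was left out in turn, with the 2 without replicate 4. Without the replicate block, that is with single-channel levels and no array term, the sex count was 0 and the dye count 4. The dye count of 1 became 2 with no background correction, with no filter on dim probes and with a trended robust prior. It was 4 with median centring, 0 with the scanner's log ratio, and 0 to 6 when a replicate was left out. By unadjusted p it was 7, beside 32.5% of all probes. Shares of all probes under the other alternatives are not given here, so these dye counts cannot show a change particular to kinesins. The median kinesin ratio of -0.0091 was -0.11 in the authors' table, which covered 26 of the probes, and -0.043 to 0.044 when a replicate was left out. The cause of these shifts was not tested.

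Of the 35 kinesin probes compared, 18 kept their direction in every alternative that gave a value, and 482 of 512 values did; 2 values passed the adjusted threshold. With median centring, ratios below 0 became 0.0363 for Kif13a at its dimmer probe, 0.0023 for Kif11, 0.0126 for Kif20b and 0.0099 for Kif2c. That Kif13a probe was at 0.0425 with no background correction and at 0.0428 with the scanner's log ratio, and Kif26a at 0.0109 and 0.0143 under the same alternatives. Kif12 was at -0.0049 with no background correction and Kif16b at -0.0013 at its dimmer probe with the scanner's log ratio. In the authors' table Kif1a was at -0.0551, Kif16b at its brighter probe at -0.0874 and Kif23 at -0.13. When each replicate was left out, ratios that changed direction ran between -0.24 and 0.0063 for Kif5c, -0.12 and 0.32 for Kif1a, -0.13 and 0.54 for Kif1b at its brighter probe, -0.24 and 0.0477 for Kif3a, -0.20 and 0.0502 for Kif3b at its brighter probe, -0.0878 and 0.0129 for Kif3c, -0.0591 and 0.0716 for Kif2a, -0.0948 and 0.0253 for Kif13a at its dimmer probe, -0.0679 and 0.0093 for Kif20b, -0.13 and 0.28 for Kif16b at its dimmer probe, -0.0427 and 0.11 for Kif23, -0.0635 and 0.0454 for Kif18b, -0.15 and 0.0753 for Kif26a, and -0.0017 and 0.0890 for Kif12. The higher end came without replicate 2 for Kif1a, Kif3a, Kif3b, Kif3c, Kif20b, Kif16b, Kif23 and Kif18b. Taking only the brightest probe of each gene left 4 of 31 with an unadjusted p under 0.05, beside 8.5% of all probes without that choice. Signals near background, as in Kif11, Kif20b, Kif2a and Kif2c, limit what their ratios can show.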
